A study of Mus musculus with 2 samples.

Results

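The genes described here encode the signalling step that leads from phospholipase C to diacylglycerol on one side and to calcium, calcineurin and NFAT on the other. They were chosen by symbol: every gene whose probes carry 1 gene symbol beginning with Plcb, Plcg, Plcd, Prkc, Dgk, Rasgrp, Itpr, Ppp3, Nfat, Rcan, Calm or Camk. The rule found 35 of 4331 genes, read by 42 of the 8014 probes on the array. No gene with the prefix Plcb, Plcg or Plcd was among them, so the phospholipase C enzymes themselves were not analysed here and the account starts at their products. One of the 35, Prkcsh, shares the prefix but encodes the beta subunit of glucosidase II, an endoplasmic reticulum enzyme, and is no protein kinase C.

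In T cells, phospholipase C gamma splits a membrane phosphoinositide into diacylglycerol and inositol trisphosphate once the T cell receptor is engaged. Diacylglycerol recruits RasGRP exchange factors and protein kinase C and is removed by diacylglycerol kinases. Inositol trisphosphate opens its receptor on the endoplasmic reticulum, and the calcium released binds calmodulin, which switches on CaM kinases and the phosphatase calcineurin. Calcineurin strips phosphate from NFAT proteins so that they enter the nucleus. LatY136F replaces 1 tyrosine of the adaptor Lat with phenylalanine, and that tyrosine is known as the docking site of phospholipase C gamma.

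Total RNA of CD4+ alpha beta T cells from LatY136F mouse spleens was hybridised against total RNA of the same cell population from wildtype spleens on 2 two-colour arrays. Per the labels, cells were positively selected with magnetic anti-CD4 beads and a cell sorter. Wildtype RNA was in channel 1 and LatY136F RNA in channel 2 of array 1, and the channels were exchanged on array 2. The labels give no age, strain or number of mice. Nor do they tell if each array had RNA extracts of its own, so the pair counts as 1 biological comparison with no test, and the spread between the arrays may be technical.

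Values are log2 ratios of LatY136F over wildtype, centred on each array's median, with the sign of array 2 reversed. The direction of the ratio and the log10 scale of the deposited values are likely, not stated: if the opposite direction holds, every "higher" below becomes "lower". A mean is followed by ± 0.5 times the difference between the arrays. A gene was called at 2-fold when both arrays put its log2 ratio at 1 or above, or both at -1 or below, and at 1.5-fold when it passed 0.58 in size the same way on both. The table holds ratios without signal levels, so neither the abundance of a transcript nor the precision of its ratio is known, and no gene's level can be set against that of another.

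The cell label could be read only through ratios. Of 11 measured markers of CD4 and alpha beta T cells none was called at 2-fold in either direction, with a median of -0.01 and a range of means from -0.88 (Cd247) to 0.81 (Cd5, called higher at 1.5-fold), while Lat itself stood at -0.16 on array 1 and -0.17 on array 2. Markers of other cells differed between the RNAs. Of 14 B cell markers 6 were called lower at 2-fold and none higher, with a median of -0.86 and a range of means from -2.29 to 0.63, led by Cd79b and Cr2. Of 16 monocyte and macrophage markers 7 were called higher and none lower, with a median of 1.15 and a range from -0.45 to 2.48, led by C1qc and Lyz1. Neutrophil markers (7 measured, 3 higher, median 1.02) and erythroid and platelet markers (7 measured, 4 higher, median 1.07) lay on the same side. CD8 T and natural killer cell markers had 2 of 9 called lower, with a median of -0.36, and dendritic cell markers 1 of 9 in each direction, with a median of -0.03. Several members are also expressed in these cells, and the part such cells have in the ratios below was not tested. Fewer cells of a type and less RNA per cell cannot be told apart in RNA from a whole population.

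Most of the 35 genes were called at neither threshold. At 2-fold on both arrays 1 gene was called higher, Camk2b, and 1 lower, Prkcb. Over all genes 4.20% were called higher and 0.970% lower at this threshold, so the members' 2.86% in each direction amounts to a single gene on either side. At 1.5-fold, 2 members were called higher (Camk2b and Calm3) and 3 lower (Prkcb, Dgkd and Dgka), 5.71% and 8.57% of the members, beside 7.83% higher and 2.93% lower over all genes. The median over the members was 0.01, with -0.02 on array 1 and -0.04 on array 2, against 0.0004 over all genes. Both arrays gave the same sign for 21 of the 35 (60.0%), beside 55.8% of all genes. The sizes of the members' mean ratios had a median of 0.35, beside 0.21 over all genes, and 0.5 times the difference between the arrays had a median of 0.13, beside 0.15.

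**Figure D1:**
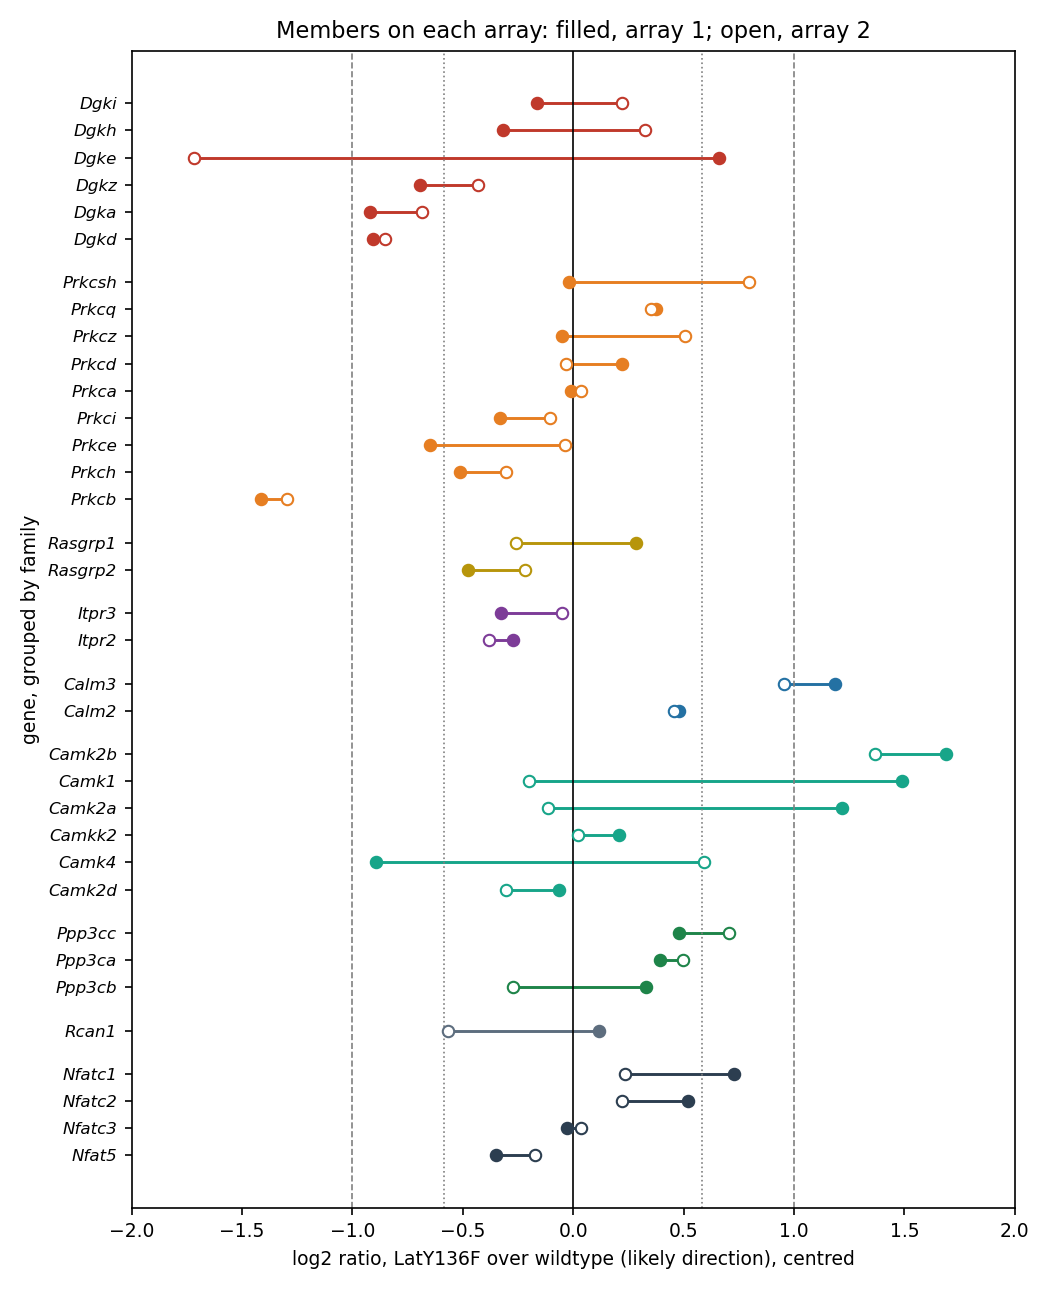
Log2 ratio of LatY136F over wildtype (horizontal axis) for the 35 genes (vertical axis), grouped and coloured by family, with array 1 as a filled and array 2 as an open circle and a line joining them; dashed lines mark 2-fold and dotted lines 1.5-fold. Camk2b is the only gene with both circles right of the upper 2-fold line and Prkcb the only one with both left of the lower, while the circles of Dgke, Camk1, Camk2a and Camk4 lie far apart.

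By symbol, 17 genes fell to the diacylglycerol branch (prefixes Dgk, Prkc and Rasgrp). Of these, 9 (52.9%, beside 55.8% of all genes) kept 1 sign across the arrays, 8 lower and 1 higher in LatY136F cells. Of all 4331 genes, 1103 were lower and 1313 higher on both arrays. The branch median was -0.22, with -0.32 on array 1 and -0.11 on array 2. At 1.5-fold none of the 17 was called higher and 3 were called lower, beside 7.83% and 2.93% of all genes. The 17 include Prkcsh and the atypical kinase genes Prkci and Prkcz, whose products do not answer to diacylglycerol; in the 14 others 8 kept one sign, 7 lower and 1 higher, and the median was -0.35. In the calcium branch 12 of 18 genes (66.7%) kept one sign, 8 of them higher and 4 lower, and the median was 0.24, with 0.36 on array 1 and 0.03 on array 2. In that branch 2 genes were called higher and none lower at 1.5-fold. The diacylglycerol branch pools kinases that remove diacylglycerol, with 2 of the 3 lower calls, and proteins that diacylglycerol recruits. Its median therefore describes no single direction of signalling. Nfat5, which does not bind calcineurin, was kept in the calcium branch, and Rasgrp2, an activator of Rap, in the diacylglycerol branch. The difference between the branches was not tested.

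Prkcb, encoding protein kinase C beta, was the lowest member. This calcium- and diacylglycerol-dependent kinase is best known for carrying the B cell receptor signal to NF-kappaB and is also made in T cells and myeloid cells. The table gives it log10 ratios of -0.43 on array 1 and, with the dyes exchanged, 0.397 on array 2. They gave log2 ratios of -1.42 and -1.30, a mean of -1.36 ± 0.06 or 2.56-fold lower in LatY136F cells. Both arrays placed it past the 2-fold line, and its mean was at rank 35 from the lowest of 4331 genes. The lower B cell markers listed above moved in the same direction, as did the median of CD8 T and natural killer cell markers. Monocyte, macrophage and neutrophil markers moved the other way. The part of any of these cells in this ratio was not tested.

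The other kinases of the family that bind diacylglycerol lay closer to 0. Prkcq, the theta isoform that acts at the T cell receptor synapse, stood at 0.38 on array 1 and 0.35 on array 2, a mean of 0.36 ± 0.01 and the closest pair of values among the 35. It was thus slightly higher on both arrays and below 1.5-fold. Prkch, the eta isoform, also expressed in T cells, stood at -0.51 and -0.30, lower on both. Prkcd, the delta isoform, known for restraining B cells, gave 0.22 and -0.03, and Prkca, the conventional alpha isoform, -0.01 and 0.04, so neither showed a direction. Prkce, the epsilon isoform, was read by 2 probes that shared only array 1: one gave -0.65 and -0.58, the other -0.65 and 0.50.

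The atypical isoforms, which respond to neither calcium nor diacylglycerol and act in cell polarity, gave no call. Prkci, the iota isoform, averaged -0.33 on array 1 and -0.11 on array 2, but one probe gave -0.61 and 0.13 and the other -0.06 and -0.34. Prkcz, the zeta isoform, averaged -0.05 and 0.51. One of its probes gave -0.62 and 0.83 and the other 0.52 and 0.18, so its sign depended on the array and the probe. Prkcsh, the glucosidase subunit, stood at -0.02 and 0.80. Across the 9 genes with the prefix Prkc, Prkcb was the only one called, at either threshold. Of all genes, 0.970% were called lower and 4.20% higher at 2-fold, and 2.93% and 7.83% at 1.5-fold. A single gene thus makes up the count for this prefix.

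Diacylglycerol kinases convert diacylglycerol to phosphatidic acid and so end its signal; the alpha and zeta isoforms are known as the main brakes on RasGRP in T cells. Dgkd, the delta isoform, stood at -0.91 on array 1 and -0.85 on array 2, a mean of -0.88 ± 0.03 (1.84-fold lower, rank 81 from the lowest). Dgka gave -0.92 and -0.69, a mean of -0.80 ± 0.12 (1.74-fold lower, rank 99). Both were lower on either array by at least 1.5-fold and by less than 2-fold. Dgkz, the zeta isoform, was lower too, at -0.69 and -0.43, and passed 1.5-fold on array 1 only.

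The remaining diacylglycerol kinases had opposite signs on the arrays. Dgke, the epsilon isoform, which prefers arachidonoyl-containing diacylglycerol, gave 0.66 on array 1 and -1.72 on array 2. This gap, 1.19 when taken as 0.5 times the difference, was the widest of the 35 genes, so its mean of -0.53 has no direction. Dgkh, the eta isoform, gave -0.32 and 0.32. Dgki, the iota isoform, averaged -0.16 and 0.22 over 2 probes. One of them gave -0.31 and 0.63, and the other -0.02 and -0.19, below 0 on both arrays. The median of the 6 kinases lay between the means of Dgkz (-0.56) and Dgke (-0.53). On both arrays 3 of the 6 were lower, beside 1103 of all 4331 genes.

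Rasgrp1 encodes the main RasGRP protein of developing and mature T cells, which loads Ras with GTP after binding diacylglycerol. Rasgrp1 stood at 0.28 on array 1 and -0.26 on array 2, with no direction. Rasgrp2, an activator of Rap in platelets and lymphocytes, stood at -0.48 and -0.22, lower on both arrays and below 1.5-fold. Platelet markers were higher and B cell markers lower in the same RNA, and their part in this ratio was not tested.

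**Figure D2:**
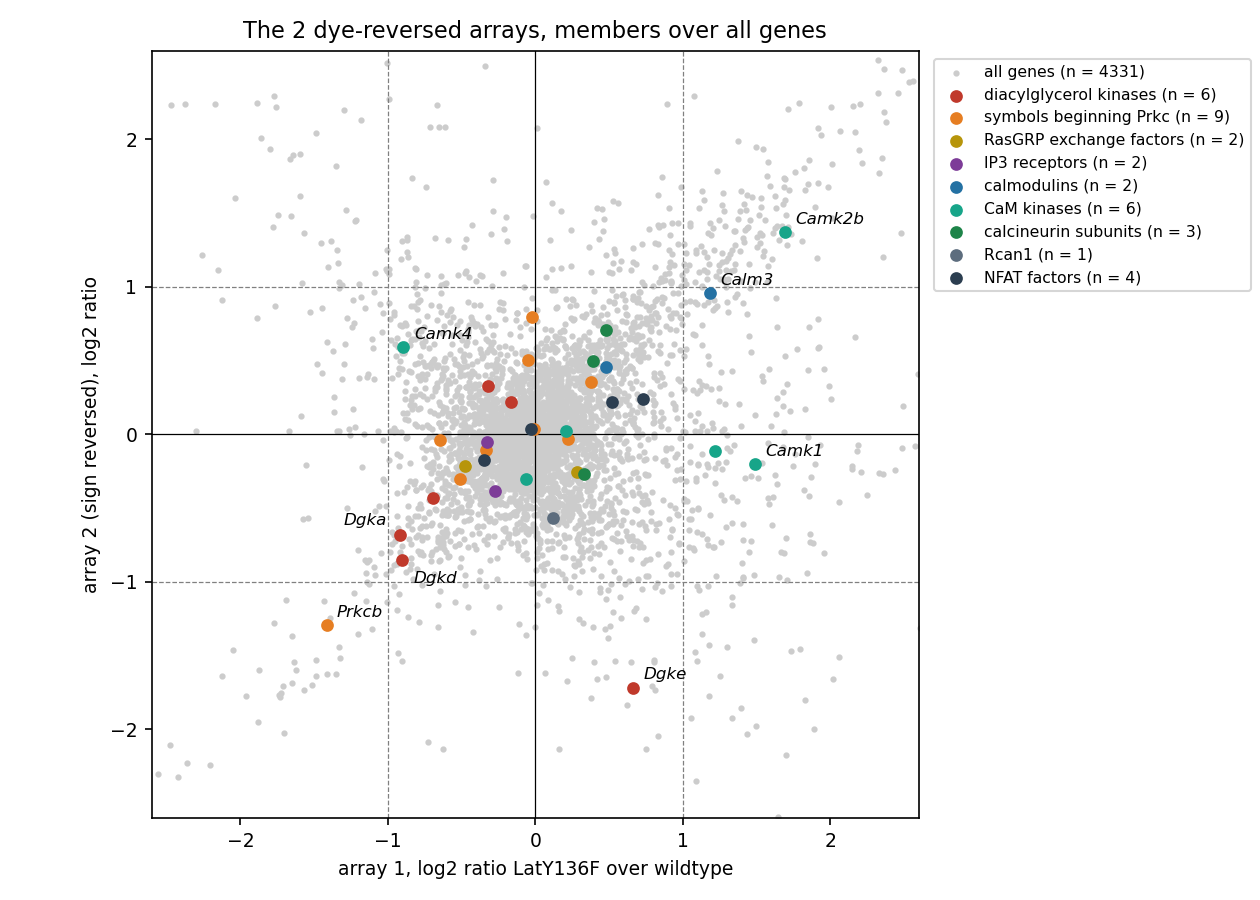
Array 1 (horizontal) against the sign-reversed array 2 (vertical), log2 ratios of LatY136F over wildtype, with all 4331 genes in grey and the 35 members coloured by family; dashed lines mark 2-fold, and 53 genes beyond 2.6 on either axis are not drawn. Camk2b and Calm3 lie at the upper right and Prkcb, Dgkd and Dgka at the lower left, where the arrays give the same sign, whereas Dgke, Camk4 and Camk1 lie in the quadrants of opposite sign.

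The receptors that release calcium were lower on both arrays, by little. Itpr2 averaged -0.27 on array 1 and -0.38 on array 2 over 2 probes, one near 0 on array 1 (0.002 and -0.29) and the other lower on both (-0.55 and -0.47). Itpr3 stood at -0.33 and -0.05. Neither passed 1.5-fold, and Itpr1 was not analysed here.

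Calmodulin, the small protein that carries the calcium signal to most of its effectors, is made from several genes with an identical protein product. Calm3 stood at 1.19 on array 1 and 0.96 on array 2, a mean of 1.07 ± 0.11 (2.10-fold higher, rank 228 from the highest). It therefore passed 2-fold on array 1 and lay just under it on array 2. Calm2 stood at 0.48 and 0.45, a mean of 0.47 ± 0.01. Both measured calmodulin genes were higher in LatY136F cells on both arrays, by different amounts. The transcripts of these genes code for the same protein but differ in sequence, and how far their probes could share target RNA was not tested.

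Among the CaM kinases, Camk2b was the highest of all 35 genes. It encodes the beta subunit of CaM kinase II, a kinase best known from the nervous system that holds its activity after the calcium signal has passed. The log10 ratios in the deposited table were 0.505 for array 1 and -0.405 for array 2, or 1.69 and 1.37 as log2 ratios, a mean of 1.53 ± 0.16 (2.89-fold higher, rank 102 from the highest). Both values lay beyond 2-fold. Markers of monocytes, neutrophils, red cells and platelets were higher in the same RNA, and their part in this ratio was not tested.

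Other subunits of CaM kinase II did not follow it on both arrays. Camk2a, the alpha subunit, was read by 2 probes: one gave 1.41 on array 1 and 0.50 on array 2, the other 1.02 and -0.73. Both probes were higher on array 1, while only one was on array 2, and the gene's average of 1.22 and -0.11 was not called. Camk2d, the delta subunit, stood at -0.06 and -0.30. Whether the subunits differ was not tested.

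Camk4, which acts on transcription through CREB, and Camk1 gave no direction. Camk4, the nuclear CaM kinase of T cells and neurons, stood at -0.89 on array 1 and 0.59 on array 2. Camk1, a cytoplasmic relative, stood at 1.49 and -0.20. Both were among the members with the widest gaps, and Camk4 and Dgke were the 2 of 35 that passed 1.5-fold in opposite directions, beside 257 of all 4331 genes. Camkk2, the kinase that activates Camk1 and Camk4, stood at 0.21 and 0.02, above 0 on both arrays and below 1.5-fold.

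Calcineurin, the target of ciclosporin and tacrolimus, was represented by its 3 catalytic subunits. Ppp3cc, the gamma form, stood at 0.48 on array 1 and 0.71 on array 2, a mean of 0.59 ± 0.11 (1.51-fold higher). Ppp3ca, the alpha form, stood at 0.39 and 0.50, a mean of 0.45 ± 0.05. These subunits were higher on both arrays, and neither passed 1.5-fold on both. Ppp3cb, the beta form, gave 0.33 and -0.27, and each of its 2 probes was above 0 on array 1 and below 0 on array 2. The regulatory subunits were not analysed here.

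Rcan1, a calcineurin inhibitor that NFAT itself induces and that serves as a readout of calcineurin activity in many cells, stood at 0.12 on array 1 and -0.57 on array 2. It gave no direction. Of the calcium-regulated NFAT genes, Nfatc1, which amplifies its own expression in activated lymphocytes, stood at 0.73 and 0.24, a mean of 0.48 ± 0.24. Nfatc2, the main NFAT protein of resting T cells, stood at 0.52 and 0.22, a mean of 0.37 ± 0.15. Both were higher on both arrays. Nfatc1 passed 1.5-fold on array 1 only and Nfatc2 on neither array, while Nfatc3 lay at 0 within its spread (-0.03 and 0.04). Nfat5, the member that answers osmotic stress and does not bind calcineurin, stood at -0.35 and -0.18.

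Promoter sequences are shown for members called at 1.5-fold and for Rcan1, with short motifs of NFAT and of other transcription factors. Whether such sites bear on the direction of a gene was not tested. RefSeq windows (GRCm38.p6) from 250 bases before to 50 bases after an annotated start were at hand for 27 of the 35 genes, 40 windows in all. Motifs were searched on both strands: GGAAA, the core bound by NFAT, TGANTCA for AP-1, TGACGTCA for the cyclic AMP response element, GTAAACA for forkhead factors, GTGGGCG for Egr factors, and ATGCAAAT, the octamer of POU factors. The octamer was added after the Prkcb window had been seen. Capitals mark every match.
Prkcb, chr7:122288875-122289174, plus strand: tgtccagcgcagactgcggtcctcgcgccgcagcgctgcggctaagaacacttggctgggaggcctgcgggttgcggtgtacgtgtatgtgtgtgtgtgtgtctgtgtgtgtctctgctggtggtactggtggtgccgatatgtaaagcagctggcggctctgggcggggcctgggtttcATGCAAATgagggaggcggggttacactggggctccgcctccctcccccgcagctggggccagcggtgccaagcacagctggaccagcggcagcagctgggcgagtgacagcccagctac
Camk2b, chr11:6065699-6065998, minus strand: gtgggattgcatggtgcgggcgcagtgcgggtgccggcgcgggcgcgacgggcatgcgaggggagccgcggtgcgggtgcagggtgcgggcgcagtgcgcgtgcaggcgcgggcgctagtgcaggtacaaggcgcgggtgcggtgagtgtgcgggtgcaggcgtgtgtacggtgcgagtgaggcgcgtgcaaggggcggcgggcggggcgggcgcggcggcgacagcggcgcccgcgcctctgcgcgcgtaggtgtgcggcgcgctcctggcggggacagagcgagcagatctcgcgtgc
Dgkd, chr1:87853037-87853336, plus strand: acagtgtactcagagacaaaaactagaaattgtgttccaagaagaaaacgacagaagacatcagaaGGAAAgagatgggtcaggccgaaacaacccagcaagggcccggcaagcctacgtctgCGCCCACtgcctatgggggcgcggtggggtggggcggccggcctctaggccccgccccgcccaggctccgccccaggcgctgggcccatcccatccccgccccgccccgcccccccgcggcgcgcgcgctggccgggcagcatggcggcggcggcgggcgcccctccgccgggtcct
Dgka, first of 4 listed starts, chr10:128745035-128745334, minus strand: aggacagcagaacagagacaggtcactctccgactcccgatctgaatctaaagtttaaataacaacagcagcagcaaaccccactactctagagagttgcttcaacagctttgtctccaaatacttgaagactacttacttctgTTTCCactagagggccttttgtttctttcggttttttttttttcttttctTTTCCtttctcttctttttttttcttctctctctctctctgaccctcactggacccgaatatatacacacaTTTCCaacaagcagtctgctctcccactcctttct
Calm3, chr7:16923983-16924282, minus strand: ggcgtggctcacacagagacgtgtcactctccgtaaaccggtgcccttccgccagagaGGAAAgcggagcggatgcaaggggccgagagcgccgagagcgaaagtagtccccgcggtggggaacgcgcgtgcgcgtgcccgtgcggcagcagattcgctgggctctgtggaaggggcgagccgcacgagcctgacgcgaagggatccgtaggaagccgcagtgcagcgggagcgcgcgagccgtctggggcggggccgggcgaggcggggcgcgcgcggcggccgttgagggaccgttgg
Rcan1, start with most NFAT cores of its 2, chr16:92400029-92400328, minus strand: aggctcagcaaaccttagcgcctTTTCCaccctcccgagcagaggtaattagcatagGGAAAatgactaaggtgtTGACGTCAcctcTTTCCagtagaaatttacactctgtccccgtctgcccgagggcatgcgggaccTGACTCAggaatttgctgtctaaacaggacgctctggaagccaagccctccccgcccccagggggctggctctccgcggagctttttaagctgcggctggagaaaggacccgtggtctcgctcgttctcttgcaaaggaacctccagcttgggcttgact

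The window of Prkcb, the lowest gene, held no NFAT core and 1 octamer, 70 bases before the start. Of all 32851 windows 1.74% hold an octamer, and among the members only Itpr3 held 1 besides. Because the octamer was added after the Prkcb window had been seen, this share cannot weigh the Prkcb match. The Dgka window held 3 NFAT cores, at 106 and 56 bases before and 15 bases after the start, and those of the 3 other Dgka starts held 1, 0 and 2. In Dgkd 1 NFAT core lay 184 bases and 1 Egr match 127 bases before the start, and in Calm3 the single NFAT core lay 192 bases before it. The Rcan1 window held 3 NFAT cores, at 227, 193 and 163 bases, 1 cyclic AMP response element at 175 bases and 1 AP-1 match at 110 bases before the start, none overlapping, while the window of the other Rcan1 start held 0 NFAT cores. The Camk2b window (77.3% G and C) held none of the 6 motifs. The NFAT core is a short motif: 61.3% of all windows hold it, and 19 of the 40 member windows (47.5%) did. AP-1 matches were in 7.81% of all windows, cyclic AMP response elements in 1.79%, forkhead matches in 3.65% and Egr matches in 7.97%; among the member windows they were in 1, 2, 2 and 5. A match describes letters only.

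Of the 7 members with 2 probes none was called, and 4 of the 7 had opposite signs on the arrays after averaging. Opposite signs were also found in 10 of 28 members with 1 probe and in 1915 of all 4331 genes. The means of both probes lay a median of 0.27 apart, from 0.04 for Prkci to 0.81 for Camk2a, and had opposite signs in 2 of the 7, Dgki and Ppp3cb. Over all 268 genes with 2 probes the median gap was 0.22 and 33.2% had opposite signs. All 5 members called at 1.5-fold rest on a single probe.

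**Figure D3:**
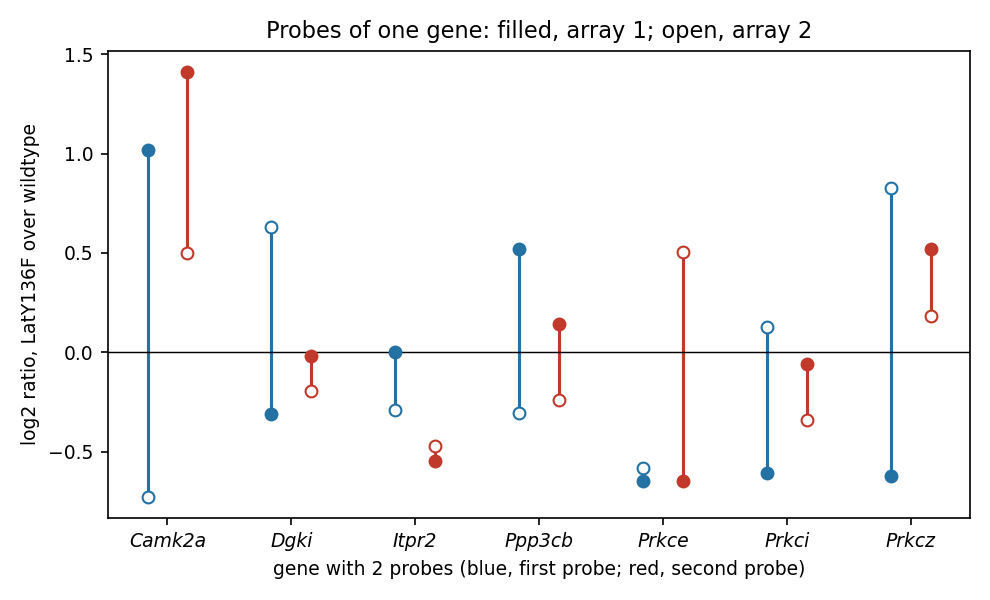
Log2 ratio of LatY136F over wildtype (vertical axis) for each probe of the 7 members with 2 probes (horizontal axis; blue and red are the probes in the order of their identifiers), with array 1 filled and array 2 open. Itpr2 and Prkce each have 1 probe below 0 on both arrays by 0.47 or more, and the Camk2a probes are higher on array 1 by 1.02 and 1.41 and part on array 2.

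Genes around these families were counted by list, beside the 4.20% higher and 0.970% lower over all genes at 2-fold. In the list of proximal T cell receptor signalling 26 genes were measured, none higher and 1 lower at 2-fold, the Tec family kinase Txk, which phosphorylates phospholipase C gamma, at -2.50 and -2.68; the median was -0.03, with -0.09 on array 1 and 0.07 on array 2. At 1.5-fold Cd5 and Lcp2, the SLP-76 adaptor that binds Lat's partners, were higher. Of 7 phosphoinositide and inositol phosphate enzymes none passed 2-fold, with a median of 0.34; Inpp5d, the phosphatase SHIP, was called higher at 1.5-fold (1.08 and 0.68). Among them, named after its values were seen, was Plcl2, a phospholipase C-like protein without enzyme activity, at -0.42 and -0.34. Calcium entry channels, stores and pumps (15 measured) held no call at either threshold, with a median of 0.10, and Stim and Orai genes were not analysed here.

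Genes known to be induced through NFAT were examined as well. Of 34 measured genes known as NFAT targets in T cells, 7 were called higher at 2-fold and none lower, and 11 higher at 1.5-fold, beside 4.20% and 7.83% of all genes. Those furthest from 0 were the cytokine Il13 (3.39), the costimulatory receptor Tnfrsf4 (1.58), the chemokine Ccl1 (1.49), the cytokine Il10 (1.22) and the transcription factor Irf4 (1.22). The list's median was 0.25, with 0.30 on array 1 and 0.44 on array 2. Still, 14 of the 34 had opposite signs on the arrays, among them Il2, the classical NFAT target, at -0.36 and 0.14, and Il4, at 1.41 and -0.97. Several of these genes were already known to be higher in these arrays when the list was written, so its count is no independent evidence, and markers of other blood cells were higher in the same RNA, whose part was not tested.

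The remaining lists had medians near 0. Calcineurin and NFAT regulators and partners (20 measured, median 0.06) had 2 genes higher at 2-fold, the AP-1 family factor Batf (2.01) and its binding partner Irf4, and none lower. The module from protein kinase C theta to NF-kappaB (23 measured, median 0.11) had no call at 2-fold and 2 higher at 1.5-fold, Nfkbia, the inhibitor that NF-kappaB itself induces (0.70), and the kinase Akt1 (0.66). In the Ras to ERK module (20 measured, median -0.06) Dusp6, the ERK phosphatase, was higher at 2-fold (1.59), and Rasal1, a Ras GTPase-activating protein that calcium recruits to membranes, was lower at 1.5-fold (-1.02). Of 15 CaM kinase effectors and other calmodulin targets (median 0.05) none passed 2-fold, and Marcks, a protein kinase C substrate that binds calmodulin, was higher at 1.5-fold, at 0.74 and 0.75.

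**Figure D4:**
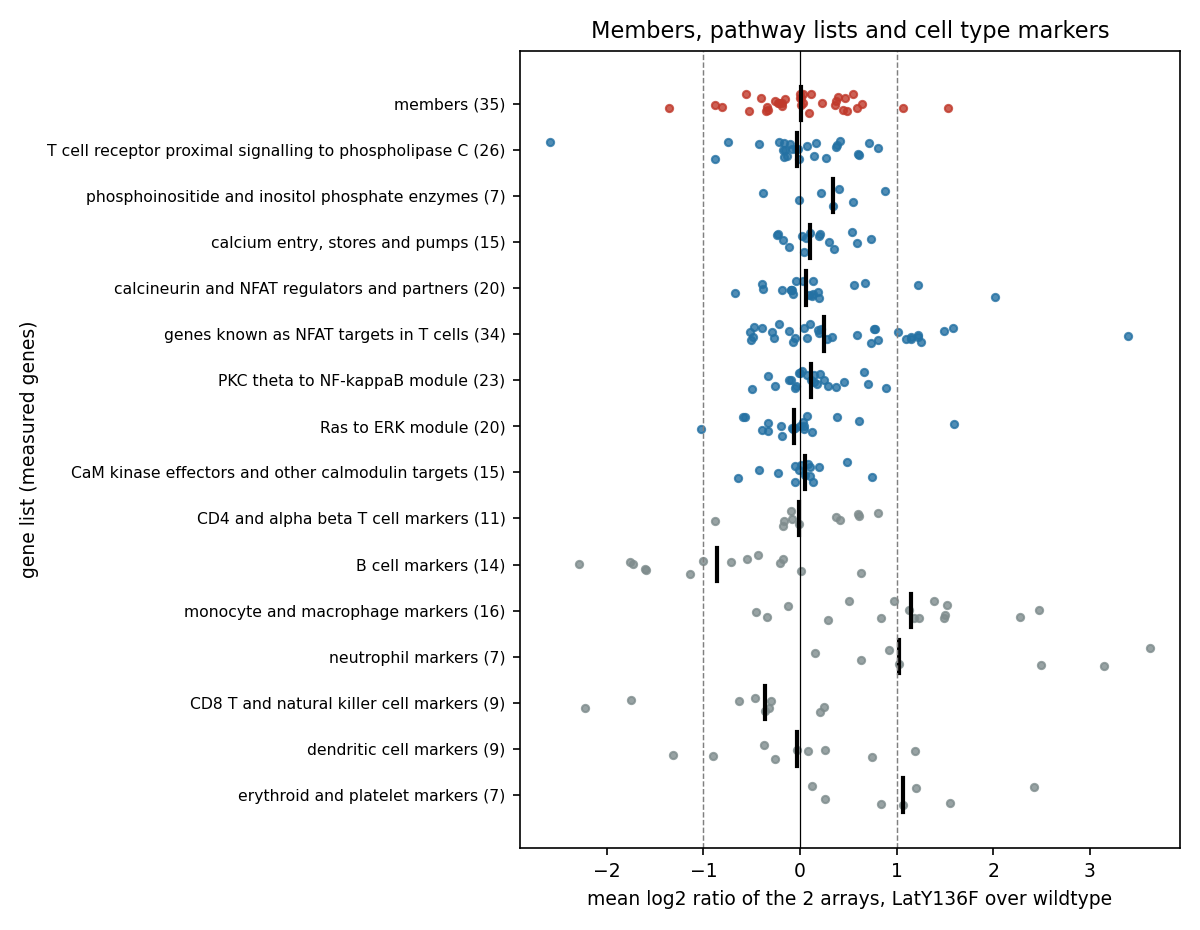
Mean log2 ratio of both arrays, LatY136F over wildtype (horizontal axis), for each measured gene of the 35 members (red), the 8 pathway lists (blue) and the 7 cell type marker lists (grey), with the number measured in brackets, medians as black bars and dashed lines at 2-fold; vertical scatter within a row has no meaning. The members centre on 0.01, the NFAT targets on 0.25, the B cell markers on -0.86 and the monocyte and macrophage markers on 1.15.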

How the data were processed

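The deposited table, as the authors supplied it, holds 1 log10 ratio for each of 8014 probes on 2 arrays; the labels name no normalization, filter, log base or direction. A maximum of exactly 2 on array 1 reads as a 100-fold limit in log10, which is likely and not certain. The deposited columns correlated at -0.21 over probes, so array 2 was multiplied by -1. Values were converted to log2 (times 3.32), centred on each array's median, and averaged over the probes of a gene with pandas 2.3.3. Per the platform annotation, 4654 probes carry 1 symbol, 73 carry several and 3287 carry none; all 35 members had the same symbol in RefSeq (GRCm38.p6). No member probe stood at exactly 0. The call rules were tested on simulated data. Members, 8 pathway lists and 7 marker lists were chosen with earlier results of these data known. Every measured member is named; from the pathway lists, up to 5 genes called at 2-fold and Lat. Genes named at 1.5-fold, and Il2, Il4 and Plcl2, are named after their values were seen. The marker lists name at most 2 called genes each, besides Cd247, which was not called and is named as the low end of its list's range. Alternatives covered centring, single arrays, probe summary, scaling, thresholds, sign, log base and limma 3.58.1. Scanner signals were not analysed here, and the number of arrays limits the precision.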

Additional observations from a re-analysis of the deposited data

How the results depend on the processing

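The 1 member called higher (Camk2b) and the 1 called lower (Prkcb) stood without centring, with the strongest or the median probe per gene, with scaled arrays, without probes at exactly 0 and without Prkcsh. Single arrays called 1 to 4 members higher (Calm3, Camk1 and Camk2a besides on array 1) and 1 to 2 lower (Dgke besides on array 2), and over all genes 341 to 408 higher and 145 to 151 lower. A call on the mean gave 2 members higher and 1 lower (259 and 59 of all 4331 genes). The 1.5-fold threshold gave 2 higher and 3 lower (339 and 127 of all genes) and 3-fold 0 and 0 (69 and 19). Turning the sign exchanges both counts (42 higher and 182 lower of all genes), with Calm3 at -1.07, Camk2b at -1.53, Dgka at 0.80, Dgkd at 0.88 and Prkcb at 1.36. Read as log2, 0 members would pass in either direction, and 13 and 0 of all genes. limma on the arrays as if replicates called 0 genes in either direction at an adjusted p under 0.05 (616 at an unadjusted p under 0.05). The members' median of 0.01 became -0.0046 without centring and -0.0126 with the sign turned, and lay between -0.0383 and -0.0209 on single arrays, as a median this near 0 has no direction. Without centring, the means of Dgkh, Nfatc3, Prkca and Rasgrp1 changed sign, and Camkk2 no longer had 1 sign on both arrays, which left 11 of the 18 calcium branch genes with 1 sign. With the strongest probe Prkci lost its common sign; 13 of 18 calcium branch genes then kept 1 sign (9 higher), and 9 of 17 in the diacylglycerol branch (7 lower). Of the pathway list counts, the NFAT targets called higher at 2-fold ranged from 6 to 7 over 5 alternatives of centring, scaling and probe choice. Each ratio already sets LatY136F RNA against wildtype RNA on the same array, so no further paired analysis was run. Signal over background is not in the table, so which ratios rest on dim spots is unknown.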
